A study of Mus musculus with 2 samples.

Results

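The cytochrome P450 genes of mouse kidney were examined in 1 library from a kidney tumour and 1 library from a normal kidney. They were taken from a table of exon read counts as all symbols that begin with Cyp and a digit, which gave 102 of the 30744 symbols in the table. Where several gene models shared a symbol, the model with the most reads stood for it. Of the 102, 100 were matched by symbol to the GENCODE M21 annotation, which gives 97 of them as protein coding. Cyp2d37-ps, Cyp4f41-ps and Cyp4b1-ps2 are pseudogenes by their names, and Cyp2d13 and Cyp2c44 had no match by symbol.

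The tumour kidney came from an animal with the genotype Tet-OSKM/mPer2-luc that was given doxycycline. The normal kidney was labelled WT and was given no doxycycline, and both are labelled with a C57BL/6 x DBA/2 F1 background. In Tet-OSKM cells the drug switches on the reprogramming factors Oct4, Sox2, Klf4 and c-Myc from TetO promoters through an M2rtTA transactivator placed at Rosa26, and mPer2-luc reports Per2, a clock gene, by light. Per the labels' protocols, the animals were chimeras made by injecting embryonic stem cells with these alleles into hybrid blastocysts, so a chimera's kidney can hold both transgenic and host cells. The same protocol stands with the normal kidney, and whether that animal was a chimera cannot be told from the labels. Genotype, doxycycline and tumour state differ together between the libraries, so their parts cannot be told apart. There was no replicate in either group, so no difference below has a replicate check, and every interval covers counting error only.

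Cytochrome P450 enzymes are haem proteins that insert an oxygen atom into lipophilic substrates. Most sit in the endoplasmic reticulum and take electrons from the reductase Por and from cytochrome b5, while a mitochondrial few are fed by the ferredoxin Fdx1. Enzymes of families 1 to 3 mainly oxidise foreign compounds and some steroids and arachidonic acid, and family 4 oxidises the end of fatty acid chains. The remaining families make or break down cholesterol, bile acids, steroid hormones, vitamin D and retinoic acid. In the kidney the proximal tubule is the main site of many of these enzymes, including those of vitamin D metabolism.

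The sequences just upstream of 5 genes are shown because they stand for the contrasting results described below. Cyp26a1 was the member with the largest ratio in favour of the tumour, Cyp51 held the largest share of the tumour's P450 reads, Cyp2a4 was the member with the largest ratio in favour of the normal kidney, Cyp2a5 is its near copy, and Cyp2b23 lies between those 2 genes and went the other way. Each is the 250 bases before the RefSeq start site on GRCm38.p6, read 5′ to 3′ on the strand of the gene. The start site equalled the start of the deposited gene model in all 5. They lie at chr19:37697558-37697807 on the plus strand for Cyp26a1, chr5:4104698-4104947 on the minus strand for Cyp51, chr7:26306942-26307191 on the plus strand for Cyp2a4, chr7:26835089-26835338 on the plus strand for Cyp2a5 and chr7:26686431-26686680 on the minus strand for Cyp2b23. Capitals mark a retinoic acid response element of the DR5 kind (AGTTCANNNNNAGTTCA) in Cyp26a1, a sterol regulatory element (ATCACCTCAG) in Cyp51, and a match to the D-box (TTATGNAA), the element bound by the clock output factors Dbp, Tef and Hlf, in Cyp2a4, Cyp2a5 and Cyp2b23.
Cyp26a1: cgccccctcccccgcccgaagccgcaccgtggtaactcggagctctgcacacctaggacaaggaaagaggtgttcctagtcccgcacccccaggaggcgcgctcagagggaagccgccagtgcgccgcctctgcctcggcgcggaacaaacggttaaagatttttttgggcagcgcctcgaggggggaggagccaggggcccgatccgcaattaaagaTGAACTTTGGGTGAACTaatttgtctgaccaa
Cyp51: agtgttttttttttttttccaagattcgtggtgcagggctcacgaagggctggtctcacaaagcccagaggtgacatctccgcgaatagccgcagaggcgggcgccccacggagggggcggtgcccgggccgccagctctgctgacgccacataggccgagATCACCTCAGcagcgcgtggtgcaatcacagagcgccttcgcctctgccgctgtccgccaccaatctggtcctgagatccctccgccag
Cyp2a4: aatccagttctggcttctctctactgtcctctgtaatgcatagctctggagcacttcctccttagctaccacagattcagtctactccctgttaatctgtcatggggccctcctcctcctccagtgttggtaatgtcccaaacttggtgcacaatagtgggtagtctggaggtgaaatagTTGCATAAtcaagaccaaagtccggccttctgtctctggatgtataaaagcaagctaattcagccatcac
Cyp2a5: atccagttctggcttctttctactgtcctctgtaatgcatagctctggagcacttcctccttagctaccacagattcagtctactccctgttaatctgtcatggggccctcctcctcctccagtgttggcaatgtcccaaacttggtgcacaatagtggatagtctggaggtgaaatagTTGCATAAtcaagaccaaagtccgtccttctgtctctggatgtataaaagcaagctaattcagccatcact
Cyp2b23: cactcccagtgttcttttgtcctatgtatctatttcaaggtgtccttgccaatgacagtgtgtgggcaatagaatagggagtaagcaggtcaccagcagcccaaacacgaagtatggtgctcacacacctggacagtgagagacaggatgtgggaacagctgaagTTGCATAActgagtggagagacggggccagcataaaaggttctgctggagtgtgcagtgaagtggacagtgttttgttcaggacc

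Both strands were searched in the 76 members that have an entry in the RefSeq promoter table and in all 32851 entries of that table. The D-box letters were found in 7 of the 76 (9.21%) and in 1008 of all 32851 (3.07%). The 7 were Cyp2a4, Cyp2a5, Cyp2b10, Cyp2b19, Cyp2b23, Cyp27a1 and Cyp4f14. The response element letters of Cyp26a1 were in 1 of the 76 (1.32%) and 7 of all promoters (0.0213%), and the sterol element letters of Cyp51 were in 1 of the 76 and 14 of all promoters (0.0426%). Those last 2 words were chosen after these promoters had been seen. The element of the receptor Hnf4a, searched as CAAAGTCCA, was in 10 of the 76 (13.2%) and 0.384% of all. The 10 were Cyp2c40, Cyp2c65, Cyp2c67, Cyp2c68, Cyp2c69, Cyp2c70, Cyp3a11, Cyp3a16, Cyp3a41b and Cyp8b1. Among them only Cyp2c68 and Cyp2c69 had at least 20 reads over both libraries, and both were lower in the tumour. Both had 0 reads in the tumour and reached 20 reads only through the normal library, in which they were high. Their direction therefore says little about genes that hold this element. GCGTG, the core of the element of the aryl hydrocarbon receptor Ahr, was in 15 (19.7%) and 28.2% of all. TATAAA was in 28 of the 76 (36.8%) and 12.4% of all. A match is a description of the letters only, and neighbouring family members share their sequence by descent. The upstream stretches of Cyp2a4 and Cyp2a5 were identical at 245 of 249 aligned bases (98.4%).

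Most P450 genes that could be measured were lower in the tumour kidney, and the family as a whole took a far smaller part of its RNA. P450 genes held 7432 of the 20836819 counted exon reads of the tumour library (0.0357%) and 308577 of the 29258428 counted exon reads of the normal library (1.05%). After scaling of the library sizes by TMM, the summed level was 294 CPM (counts scaled to each library's size) in the tumour kidney and 12795 CPM in the normal kidney, 43.5-fold lower in the tumour (95% counting interval 42.5 to 44.5). In bulk tissue, fewer cells of a type and less RNA per cell cannot be told apart.

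Members with 20 or more reads summed over both libraries were treated as measured, and a member was called when its TMM-scaled ratio was at least 2-fold with an interval that excluded 1. Of the 102 members, 48 were measured and 54 were not. Of the 48, 34 were lower in the tumour (70.8%), against 28.0% of all 16326 measured genes, and 6 were higher (12.5%), against 31.2% of all measured genes. Neither call was made for 8. The shares over all measured genes, 28.0% lower and 31.2% higher, are the background for the counts of every group and list below. The median log2 ratio of the 48, tumour over normal, was -3.15, beside 0.08 over all measured genes.

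Some of these members could only be measured through the library in which they were high. Through the normal library alone 17 members reached 20 reads, through the tumour library alone 5, and 2 reached it only in the sum. The other 24 had at least 20 reads in each library, of which 17 were lower, 1 was higher, and 6 passed neither call, with a median log2 ratio of -3.01. Of all 12950 genes with at least 20 reads in each library, 28.3% were lower and 23.6% higher, with a median log2 ratio of -0.09. Ratios past 10-fold lower were seen in 23 of the 48 members (47.9%), against 7.66% of all measured genes, and past 100-fold lower in 14 (29.2%), against 1.30% of all.

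**Figure D1:**
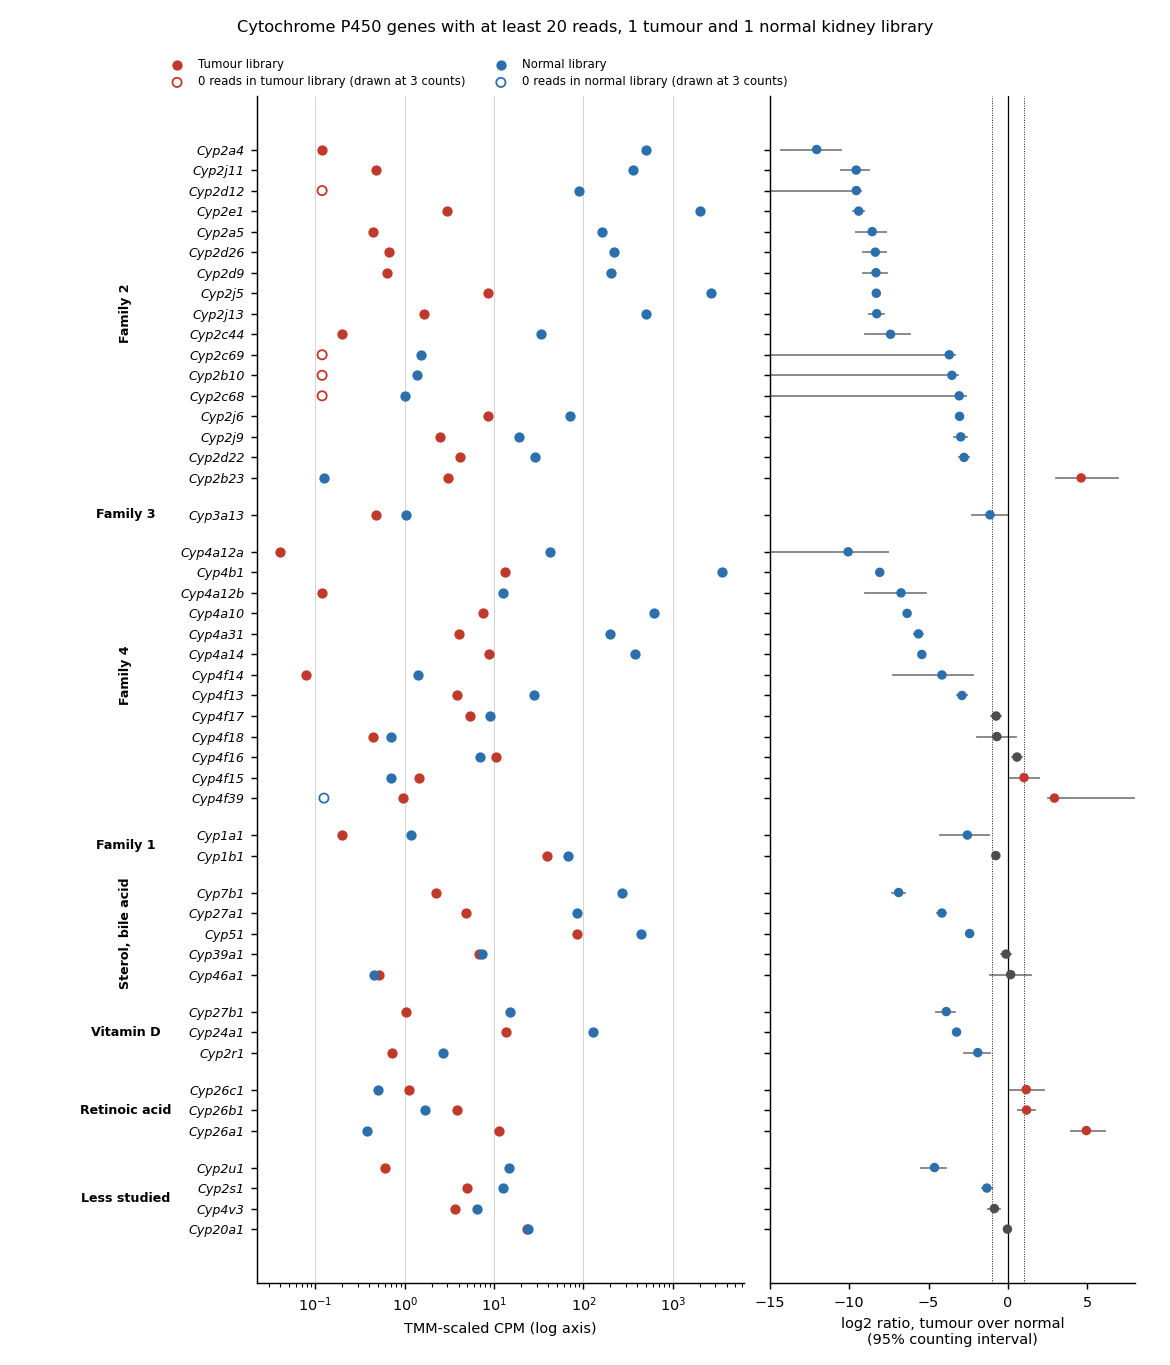
TMM-scaled CPM of the 48 measured P450 genes in the tumour and normal libraries on a log axis (left) and the log2 ratio of tumour over normal with its 95% counting interval (right), grouped by role. On the left, red is the tumour library and blue the normal library. On the right, red marks genes called higher in the tumour, blue genes called lower and dark grey neither. An open ring is a library with 0 reads, drawn at 3 counts, whose interval is open and runs to the edge, and that of Cyp4a12a, with 1 read in the tumour, also passes the edge. Dotted lines mark 2-fold. The 34 lower genes include every measured member of family 2 except Cyp2b23, and the 3 Cyp26 genes are all on the higher side.

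Which P450 genes led the expression differed between the kidneys. In the tumour library Cyp51 alone held 28.4% of the P450 reads, followed by the Cyp1b subfamily with 13.4%, the Cyp20a subfamily with 7.97% and the Cyp4f subfamily with 7.75%. In the normal library Cyp51 held 3.47%, while the Cyp2j subfamily held 28.3%, Cyp4b 27.8% and Cyp2e 15.7%. Cyp4b1, Cyp2j5 and Cyp2e1 together held 8.41% of the P450 reads of the tumour library and 64.4% of those of the normal library. By role, enzymes of sterol and bile acid metabolism held 33.3% in the tumour and 6.28% in the normal kidney, whereas family 2 held 11.7% in the tumour and 53.7% in the normal kidney. These are shares of a total that was itself 43.5-fold lower in the tumour.

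**Figure D2:**
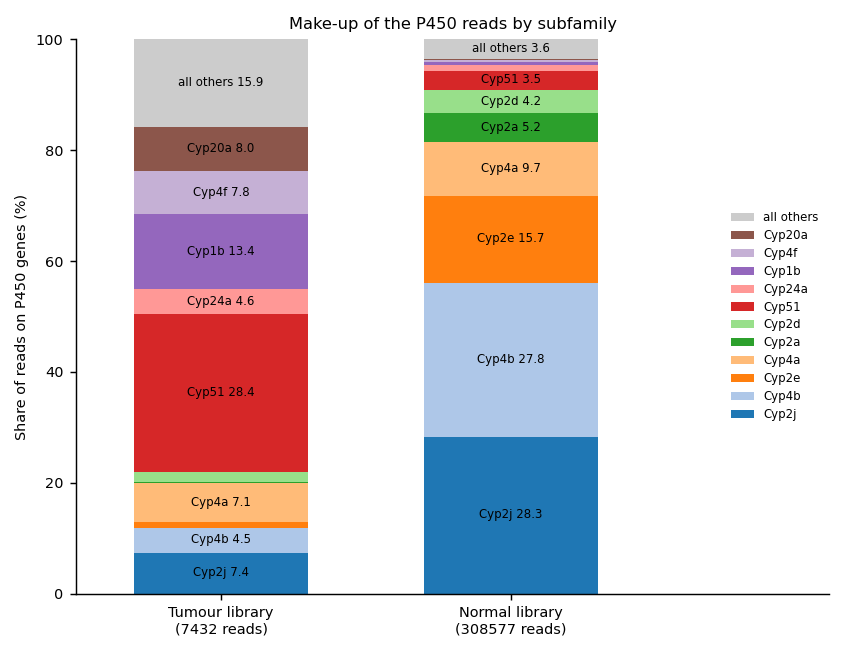
Stacked shares of the P450 reads held by each subfamily, in percent, with the tumour library (7432 reads) left of the normal library (308577 reads). Cyp51 takes 28.4% in the tumour and 3.47% in the normal kidney, while Cyp2j, Cyp4b and Cyp2e make up most of the normal bar.

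Levels between genes were compared only per transcript length, with the deposited RPKM values. In the tumour kidney the order began with Cyp51 at 14.7 RPKM and Cyp20a1 at 12.0 RPKM. Cyp1b1 followed at 5.87 RPKM (counting interval 5.51 to 6.25), then Cyp4b1 at 5.42 RPKM (4.85 to 6.03) and Cyp26a1 at 4.93 RPKM (4.38 to 5.53). Each of these 3 overlapped its neighbour in the order. In the normal kidney Cyp4b1 led at 1143 RPKM, before Cyp2e1 at 693 RPKM and Cyp2j5 at 438 RPKM. Next came Cyp4a10 at 176.4 RPKM (173.6 to 179.3) and Cyp2a4 at 175.6 RPKM (172.5 to 178.8), which did not differ beyond counting error. At least 1 RPKM was reached by 20 members in the tumour kidney and 33 in the normal kidney.

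Family 2, counted without Cyp2r1 and the less studied Cyp2s1, Cyp2u1, Cyp2w1 and Cyp2ab1, was the largest group with 45 members and had 17 measured genes, of which 16 were lower and 1 was higher in the tumour. Their median log2 ratio was -8.26. Only Cyp2d22, Cyp2e1, Cyp2j5, Cyp2j6, Cyp2j9 and Cyp2j13 reached the minimum of reads in each library, and all of these were lower. The other lower genes reached it only through the normal library, in which they were high, and Cyp2b23 only through the tumour library. The count of lower genes in family 2 therefore follows in part from that minimum. Cyp2e1, which oxidises ethanol and other small molecules, had 75 reads (2.97 CPM) in the tumour kidney and 48351 reads (2005 CPM) in the normal kidney, 676-fold lower (539 to 859). It lies at chromosome 7, 140763832 to 140774977, on mm10.

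The Cyp2j enzymes make epoxides from arachidonic acid, and Cyp2j5 is the member known for its abundance in mouse kidney. All 5 measured Cyp2j genes were lower in the tumour. Cyp2j5 (chromosome 4, 96627432 to 96664119) had 216 reads (8.54 CPM) in the tumour kidney and 64488 reads (2674 CPM) in the normal kidney, 313-fold lower (274 to 359). Cyp2j13 had 41 reads in the tumour and 12024 in the normal kidney, 307-fold lower (227 to 429). Cyp2j11 had 12 reads in the tumour and 8626 in the normal kidney, 754-fold lower (431 to 1459). The other members differed less. Cyp2j6 had 215 reads (8.50 CPM) in the tumour and 1692 reads (70.2 CPM) in the normal kidney, 8.25-fold lower (7.15 to 9.55). Cyp2j9 was 7.83-fold lower, with 62 reads in the tumour and 463 in the normal kidney.

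The Cyp2a subfamily had the steepest difference when its reads were summed, 1200-fold lower in the tumour. Cyp2a4, a testosterone hydroxylase, had 3 reads (0.119 CPM) in the tumour kidney and 12107 reads (502 CPM) in the normal kidney, 4230-fold lower with a wide interval (1447 to 20516). Cyp2a5, which hydroxylates coumarin and nicotine, had 11 reads in the tumour and 3926 in the normal kidney, 374-fold lower (209 to 750). The 2 transcripts are hard to tell apart in short reads. Of the windows of 50 bases in the Cyp2a4 transcript, 38.0% occurred in transcripts of other genes, and for Cyp2a5 the share was 40.8%. The sources used here do not say how reads that fit several places were counted, so the split of reads between Cyp2a4 and Cyp2a5 is uncertain.

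Cyp2b23, whose start lies between those of Cyp2a4 and Cyp2a5, was the exception of family 2. It had 77 reads (3.05 CPM) in the tumour kidney and 3 reads (0.124 CPM) in the normal kidney, 24.5-fold higher in the tumour (8.07 to 121). Only 4.4% of its 50-base windows were shared with other genes. Cyp2b10 is a target of the receptor Nr1i3 that is induced by foreign compounds in liver. It had 0 reads in the tumour and 33 in the normal kidney. By its lower interval limit it was at least 8.86-fold lower, and 11.5-fold when 0 is set to a floor of 3 reads. The D-box letters stand upstream of Cyp2b23 and Cyp2b10 as well as of Cyp2a4 and Cyp2a5, and these genes went both ways. Of the 7 members with these letters, 5 were lower, Cyp2b23 was higher and Cyp2b19 was not measured. Of all 48 measured members, 34 were lower (70.8%) and 6 were higher (12.5%). Among the measured genes with the letters, only Cyp27a1 reached the minimum of reads in each library. Cyp2b23 reached it only through the tumour library and the others only through the normal library. Their directions therefore say little about genes that hold the D-box letters.

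The Cyp2d and Cyp2c genes were lower wherever they were measured. Among them only Cyp2d22 reached the minimum of reads in each library. The others reached it only through the normal library, in which they were high, so their shared direction follows in part from that minimum. Cyp2d26 had 17 reads in the tumour and 5298 in the normal kidney, 327-fold lower (204 to 561). Cyp2d9 had 16 reads in the tumour and 4841 in the normal kidney, 317-fold lower (195 to 555). It shared 29.0% of its 50-base windows with other genes. Cyp2d12 had 0 reads in the tumour and 2142 in the normal kidney, at least 748-fold lower, with a lower interval limit of 608. Cyp2d22 was far less reduced, with 106 reads (4.19 CPM) in the tumour and 686 reads (28.5 CPM) in the normal kidney, 6.78-fold lower (5.52 to 8.40). Cyp2c44, an arachidonic acid epoxygenase of the kidney, had 5 reads in the tumour and 801 in the normal kidney, 168-fold lower (71.7 to 519). Cyp2c68 and Cyp2c69 had 0 reads in the tumour and 24 and 37 reads in the normal kidney, with 43.3% and 54.8% of their windows shared with other genes.

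In family 4, 13 of 20 members were measured, with a median log2 ratio of -4.16. Of these, 8 were lower (61.5%), 2 were higher (15.4%) and 3 were neither, against 28.0% lower and 31.2% higher over all measured genes. Cyp4b1, which hydroxylates fatty acids and activates several protoxins, was the most abundant P450 of the normal kidney. It had 334 reads (13.2 CPM) in the tumour and 85846 reads (3560 CPM) in the normal kidney, 269-fold lower (242 to 301). It lies at chromosome 4, 115624728 to 115647705, beside the Cyp4a genes.

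The Cyp4a enzymes hydroxylate the ends of fatty acids, arachidonic acid among them, and are targets of Ppara. All 5 measured Cyp4a genes were lower in the tumour. Cyp4a10 had 190 reads (7.52 CPM) in the tumour and 14780 reads (613 CPM) in the normal kidney, 81.5-fold lower (70.7 to 94.6). Cyp4a14 had 222 reads in the tumour and 9073 in the normal kidney, 42.8-fold lower (37.5 to 49.2), and its model overlaps the opposite-strand transcript AK135671. Cyp4a31 was 49.6-fold lower (40.8 to 61.1), with 101 reads in the tumour and 4783 in the normal kidney. Cyp4a10 and Cyp4a31 shared 28.2% and 21.7% of their 50-base windows with other genes, chiefly Cyp4a32.

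Cyp4a12a, known in mouse kidney as an androgen-dependent enzyme, had 1 read in the tumour and 1022 in the normal kidney, a ratio of 1071-fold lower (192 to 42355). Its close copy Cyp4a12b had 3 reads in the tumour and 304 in the normal kidney, 106-fold lower. The 2 genes share 48.9% and 49.4% of their 50-base windows with other genes, mostly with each other.

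The Cyp4f genes, some of which inactivate leukotrienes, were 2.07-fold lower in the tumour when summed, against 59.9-fold for the Cyp4a and 269-fold for the Cyp4b subfamily. Cyp4f13 was 7.42-fold lower (5.99 to 9.29), with 96 reads in the tumour and 680 in the normal kidney, and Cyp4f14 had 2 reads in the tumour and 34 in the normal kidney. Cyp4f39 went the other way, with 24 reads in the tumour and 0 in the normal kidney. It was at least 5.74-fold higher by its lower interval limit, and 7.63-fold with 0 set to 3 reads. Cyp4f15 was 2.02-fold higher (1.11 to 3.84), with 36 reads in the tumour and 17 in the normal kidney. Cyp4f16, Cyp4f17 and Cyp4f18 passed neither call, at log2 ratios of 0.57, -0.74 and -0.70, with 262, 134 and 11 reads in the tumour and 168, 214 and 17 in the normal kidney. Cyp4f16 shared 25.8% of its windows with other genes, chiefly Cyp4f37.

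**Figure D3:**
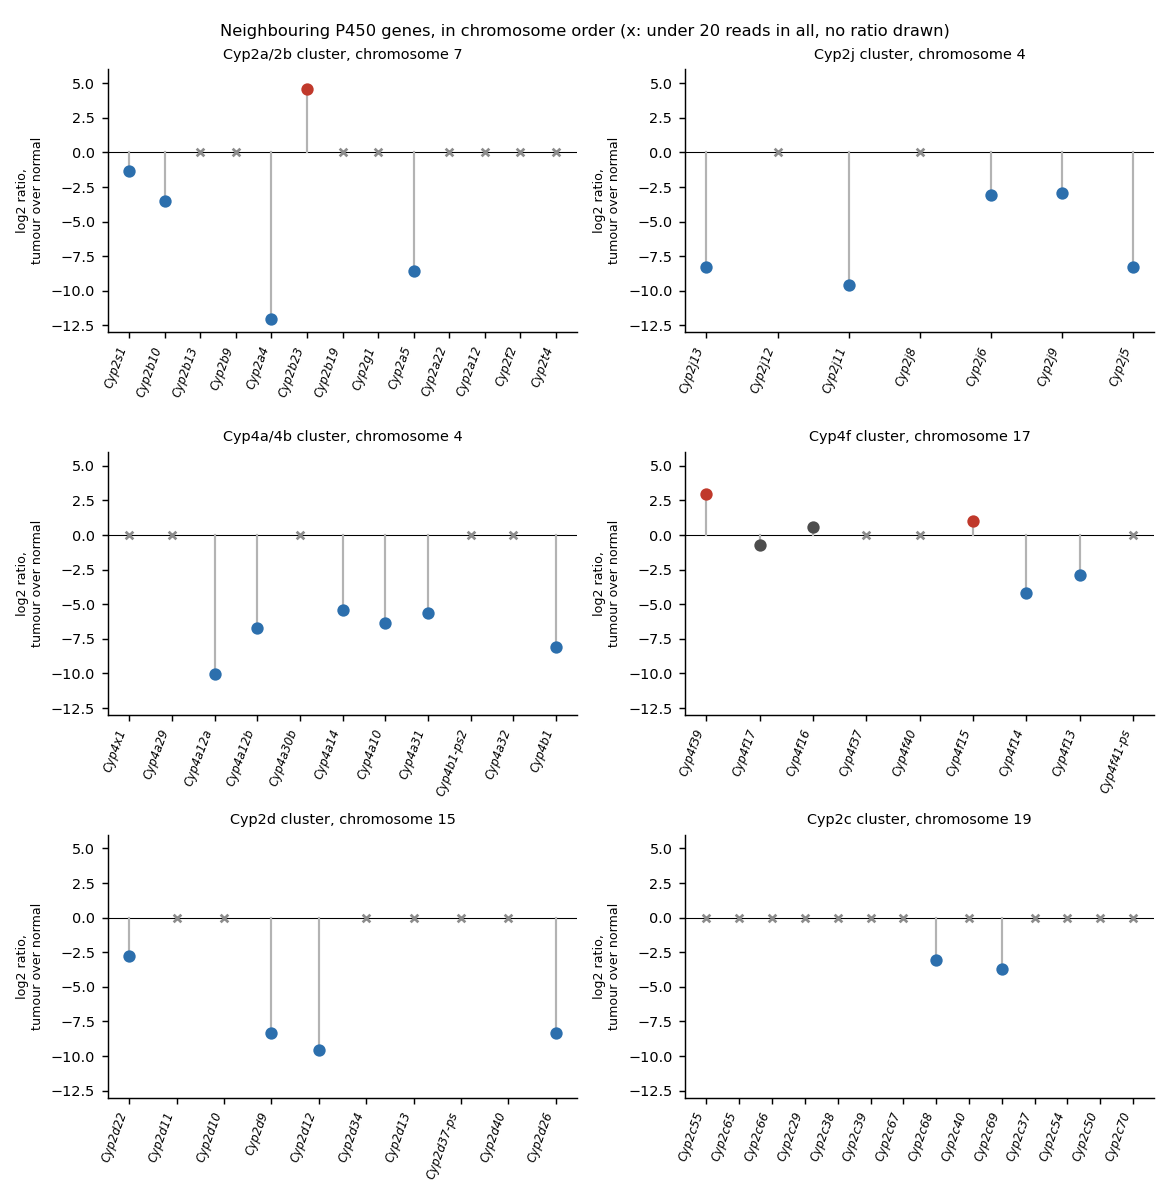
Log2 ratio of tumour over normal for the measured members of the Cyp2a/Cyp2b, Cyp2j, Cyp4a/Cyp4b, Cyp4f, Cyp2d and Cyp2c genomic clusters. A cluster joins neighbours no more than 1 Mb apart, and the other clusters are not drawn. Genes stand in chromosome order, red is called higher in the tumour, blue lower and dark grey neither, and a cross is a gene with under 20 reads. The Cyp2j and Cyp4a/Cyp4b clusters hold only lower genes, while the Cyp4f cluster runs between -4.16 and 2.93 and the Cyp2a/Cyp2b cluster holds 1 higher gene among 5 measured.

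Members that lie side by side in the genome did not always move together. The Cyp4a and Cyp4b1 cluster on chromosome 4 (115108682 to 115647705) had 6 measured genes, all lower, between -10.07 and -5.42 on the log2 scale. The Cyp2j cluster on the same chromosome (96042660 to 96664119) ran between -9.56 and -2.97, and the Cyp2d cluster on chromosome 15 (82370527 to 82794245) between -9.55 and -2.76. In the Cyp4f cluster on chromosome 17 (32452723 to 32965716) 2 of 6 measured genes were higher (33.3%), 2 were lower (33.3%) and 2 were neither. Those shares lie near the 31.2% higher and 28.0% lower over all measured genes. The Cyp3a cluster on chromosome 5 had 7 members, none measured, with 0 reads in the tumour and 1 read in the normal library in all. Cyp3a13, which lies apart from that cluster, had 12 reads in the tumour and 25 in the normal kidney, 2.18-fold lower (1.06 to 4.77).

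Among the 7 genes of sterol and bile acid metabolism, 5 were measured, of which 3 were lower and 2 were neither. Cyp51, the lanosterol demethylase of cholesterol synthesis, had 2112 reads (83.5 CPM) in the tumour and 10707 reads (444 CPM) in the normal kidney, 5.31-fold lower (5.07 to 5.57). It was the most highly expressed P450 of the tumour kidney although it was lower there. Cyp7b1, an oxysterol hydroxylase, had 57 reads (2.25 CPM) in the tumour and 6425 reads (266 CPM) in the normal kidney, 118-fold lower (91.1 to 156). Cyp27a1, the mitochondrial sterol hydroxylase of the bile acid pathway, had 121 reads in the tumour and 2062 in the normal kidney, 17.9-fold lower (14.9 to 21.6). Cyp39a1, with 171 reads in the tumour and 177 in the normal kidney, and Cyp46a1, with 13 in the tumour and 11 in the normal kidney, passed neither call. Cyp7a1, the rate-limiting enzyme of bile acid synthesis in liver, had 0 reads in both, and Cyp8b1 had 0 reads in the tumour and 3 in the normal kidney.

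Of 21 other genes of cholesterol synthesis and its control, 12 were lower in the tumour and 9 were neither, while no gene was higher. Their median log2 ratio was -1.31. The largest differences were those of Ebp at 6.61-fold lower (5.95 to 7.35), Hmgcs1 at 5.59-fold lower (5.44 to 5.76) and Nsdhl at 5.23-fold lower (4.64 to 5.90), near the 5.31-fold of Cyp51. Of 12 bile acid and oxysterol partners in the table, 9 were measured. Of these, 5 were lower (55.6%), 3 were higher (33.3%) and 1 was neither, and the median was -1.53. The share called higher lies near the 31.2% over all measured genes, of which 28.0% were lower. Akr1d1, a reductase of bile acid synthesis, had 1 read in the tumour and 1025 in the normal kidney. Slc10a2, the bile acid uptake carrier, was 102-fold lower (58.2 to 198). Baat, which conjugates bile acids, had 1 read in the tumour and 74 in the normal kidney, 77.6-fold lower with a wide interval (13.5 to 3105). Fgf15, a hormone known from gut that represses Cyp7a1 in liver, had 798 reads in the tumour and 0 in the normal kidney. It was at least 206-fold higher by its lower interval limit, and 254-fold with 0 set to 3 reads.

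All 3 P450 genes of vitamin D metabolism were lower in the tumour. Cyp24a1, which breaks down the active hormone, had 342 reads (13.5 CPM) in the tumour and 3072 reads (127 CPM) in the normal kidney, 9.42-fold lower (8.42 to 10.6). It lies at chromosome 2, 170482965 to 170497138. Cyp27b1, the renal enzyme that makes the hormone, had 26 reads (1.03 CPM) in the tumour and 366 reads (15.2 CPM) in the normal kidney, 14.8-fold lower (9.91 to 22.9). Cyp2r1, a hydroxylase that acts earlier in the pathway, had 18 reads in the tumour and 64 in the normal kidney, 3.73-fold lower (2.18 to 6.68). The intervals of Cyp24a1 and Cyp27b1 overlapped, and that of Cyp2r1 lay below both. Of their 9 partners 8 were measured, of which 6 were lower and 1 was higher, with 1 neither, at a median of -3.76. Kl, the Fgf23 co-receptor klotho, had 46 reads in the tumour and 22032 in the normal kidney, 502-fold lower (376 to 686). The hormone's receptor Vdr was 36.1-fold lower (30.5 to 43.1) and the parathyroid hormone receptor Pth1r was 28.2-fold lower, while Fgfr1 was 2.06-fold higher.

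All 3 retinoic acid hydroxylases were higher in the tumour, against 31.2% of all measured genes, and they made up 3 of the 6 members called higher. Cyp26a1 and Cyp26c1 reached 20 reads only through the tumour library, in which they were high, while Cyp26b1 reached 20 reads in each library. Cyp26a1 (chromosome 19, 37697808 to 37701536) had 290 reads (11.5 CPM) in the tumour and 9 reads (0.373 CPM) in the normal kidney, 30.7-fold higher (16.0 to 67.9). Cyp26b1 had 97 reads (3.84 CPM) in the tumour and 41 reads (1.70 CPM) in the normal kidney, 2.26-fold higher (1.55 to 3.34). Cyp26c1, the neighbour of Cyp26a1, had 28 reads (1.11 CPM) in the tumour and 12 reads (0.498 CPM) in the normal kidney, 2.23-fold higher (1.10 to 4.81). Cyp26a1 is also a textbook target gene of the retinoic acid receptors, and its upstream sequence with the DR5 letters is printed above.

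Of 14 other retinoid genes, 7 were higher (50%), 4 were lower (28.6%) and 3 were neither, with a median log2 ratio of 1.17. Over all measured genes 31.2% were higher and 28.0% lower. The binding protein Crabp2 had 1166 reads in the tumour and 1 in the normal kidney, a ratio of 1112-fold higher (199 to 43973). Crabp1 had 1002 reads in the tumour and 0 in the normal kidney. Rbp4, the retinol carrier of plasma, had 35 reads in the tumour and 0 in the normal kidney. By their lower interval limits they were at least 259-fold and 8.58-fold higher, and with 0 set to 3 reads 319-fold and 11.1-fold. Lrat, which stores retinol as its ester, went the other way with 3 reads in the tumour and 159 in the normal kidney, 55.6-fold lower (18.7 to 272).

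The xenobiotic enzymes of family 1 gave 1 lower gene and 1 neither among 3 members. Cyp1a1, the classical target of Ahr, had 5 reads in the tumour and 28 in the normal kidney, 5.87-fold lower (2.24 to 19.5). Cyp1b1, which also oxidises oestrogens, had 998 reads (39.5 CPM) in the tumour and 1612 reads (66.8 CPM) in the normal kidney, a 1.69-fold difference under the 2-fold limit. Its model overlaps the opposite-strand transcript AK006637. Cyp1a2 had 0 reads in both.

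Of 7 orphan or poorly characterised members, 4 were measured. Cyp20a1, which has no established substrate, was nearly equal, with 592 reads (23.4 CPM) in the tumour and 577 reads (23.9 CPM) in the normal kidney. Cyp2u1, a fatty acid hydroxylase, had 15 reads in the tumour and 353 in the normal kidney, 24.7-fold lower (14.8 to 44.6). Cyp2s1 was 2.51-fold lower (2.03 to 3.11), with 127 reads in the tumour and 304 in the normal kidney, and Cyp4v3, at 91 reads in the tumour and 157 in the normal kidney, passed neither call. Cyp2ab1 had 0 reads in the tumour and 5 in the normal kidney, Cyp4x1 had 5 in the tumour and 0 in the normal kidney, and Cyp2w1 had 0 in both.

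None of the 6 steroid hormone synthesis enzymes was measured. Together they held 5 reads in the tumour and 11 in the normal library. Cyp17a1 had 1 read in the tumour and 11 in the normal kidney, Cyp11a1 had 3 in the tumour and 0 in the normal kidney, Cyp11b1 had 1 in the tumour and 0 in the normal kidney, and Cyp11b2, Cyp19a1 and Cyp21a1 had 0 in both. A count of 0 allows up to 0.119 CPM in the tumour and 0.124 CPM in the normal library. Of 16 partner genes of steroid synthesis 9 were measured, 6 of them lower and 3 neither, and the median log2 ratio was -3.96. Hsd3b3 was 500-fold lower (214 to 1541), Hsd3b4 was 119.5-fold lower and Hsd3b2 was 63.5-fold lower (47.8 to 86.3). Of 11 adrenal and gonad markers 5 were measured, 2 lower and 3 neither, and Star had 39 reads in each library.

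In all, 30 of the 102 members had 0 reads in both libraries, and a further 24 had between 1 and 19 reads over both. At least 1 read was found for 59 members in the tumour and 65 in the normal library. With no minimum of reads, 38 of the 72 members with a read were called lower and 7 higher, against 22.7% and 27.6% of all 21092 genes with a read. The depth behind the added calls is low, as for Cyp2c38, with 1 read in the tumour and 17 in the normal kidney, 17.8-fold lower (2.79 to 745), an example chosen after its values were seen.

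Several of the electron donors of P450 enzymes were lower in the tumour too. Of 10 listed genes, 5 were lower and 1 was higher, with 4 neither, at a median log2 ratio of -1.34. The list also counts Pgrmc1 (lower) and Pgrmc2 (neither), which are not electron donors themselves. Cyb5a, cytochrome b5, had 1696 reads (67.1 CPM) in the tumour and 19833 reads (822 CPM) in the normal kidney, 12.3-fold lower (11.7 to 12.9). Por, the reductase of all microsomal P450 enzymes, had 880 reads (34.8 CPM) in the tumour and 8111 reads (336 CPM) in the normal kidney, 9.66-fold lower (9.01 to 10.4). Fdx1 was 8.43-fold lower (7.32 to 9.76), and Cyb5r1 was 2.20-fold higher (1.95 to 2.47).

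Of 11 genes of haem synthesis and breakdown, 8 were lower and 1 was higher, with 2 neither, at a median of -1.43. Alas1, the rate-limiting enzyme of haem synthesis outside the red cell lineage, had 690 reads in the tumour and 7321 in the normal kidney, 11.1-fold lower (10.3 to 12.0). Fech, which inserts the iron, was 7.74-fold lower (7.11 to 8.45), and Cpox was 4.54-fold lower (4.16 to 4.97). Hmox1, the inducible enzyme that degrades haem, was higher at 2.89-fold (2.68 to 3.12), with 2674 reads in the tumour and 882 in the normal kidney.

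**Figure D4:**
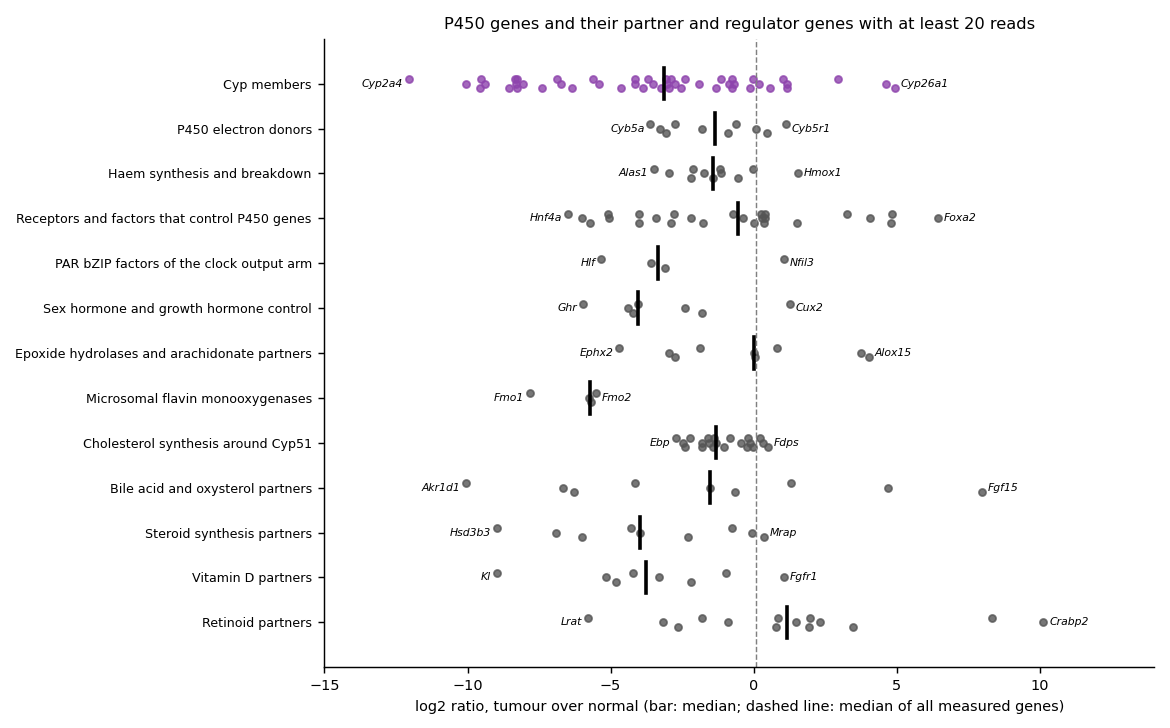
Log2 ratio of tumour over normal for the 48 measured P450 genes (top row) and for each measured gene of the partner and regulator lists, with the median of each row as a bar and that of all measured genes as a dashed line. Apart from the P450 row at -3.15, the list medians run between -5.72 for flavin monooxygenases and 1.17 for retinoid partners, which sit on both sides of 0.

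Nuclear receptors and other factors known to control P450 genes gave 12 lower, 6 higher and 8 neither among 26 measured of 29 listed, with a median of -0.56. The shares were 46.2% lower and 23.1% higher, against 28.0% and 31.2% over all measured genes. Hnf4a, a receptor of proximal tubule and liver that drives many P450 genes, had 290 reads (11.5 CPM) in the tumour and 25140 reads (1042 CPM) in the normal kidney, 90.9-fold lower (80.9 to 102). The bile acid receptor Nr1h4 was 64.4-fold lower (52.0 to 80.6) and the co-activator Ppargc1a was 52.2-fold lower (40.0 to 69.5). Foxa2, a factor of endoderm and liver, had 273 reads in the tumour and 0 in the normal kidney, at least 86.8-fold higher.

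Of the 4 bZIP factors that act on D-boxes in the output arm of the clock, 3 were lower. Hlf had 49 reads in the tumour and 1875 in the normal kidney, 40.1-fold lower (30.2 to 54.4), Tef was 12.1-fold lower (11.4 to 12.9) and Dbp was 8.60-fold lower (7.37 to 10.1). Nfil3, which represses at the same sites, was 2.07-fold higher (1.60 to 2.68). The sources used here give no time of day for the kidneys, and levels of these factors cycle over the day. Its part in these values was not tested.

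Several mouse P450 genes also differ between males and females, and the labels used here give no sex. Xist, expressed from the inactive X chromosome, had 3710 reads in the tumour and 5 in the normal kidney. The Y-linked Ddx3y had 1689 reads in the tumour and 2415 in the normal kidney, and Uty, Eif2s3y and Kdm5d were likewise read in both libraries and passed neither call. The part of these in the ratios of androgen-dependent genes such as Cyp4a12a was not tested. Of 7 genes through which sex hormones and growth hormone act, 6 were lower and 1 was higher, with a median of -4.04. The growth hormone receptor Ghr was 62.6-fold lower (57.1 to 68.8), Bcl6 20.9-fold, Esr1 16.4-fold, Stat5a 5.29-fold and Stat5b 3.49-fold, and Cux2 was 2.43-fold higher.

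Markers of kidney cell types differed in the same comparison. All 15 proximal tubule markers were lower in the tumour, with a summed level of 945 CPM in the tumour and 67670 CPM in the normal kidney, 71.6-fold lower, and a median log2 ratio of -8.68. The 5 markers of the thick ascending limb and distal tubule were all lower, 188-fold when summed, with a median of -7.05, and so were the 5 of the collecting duct, 35.5-fold when summed, with a median of -5.32. All 6 pluripotent cell markers were higher, and so were the 4 measured of 5 neural markers. Of 12 hepatocyte and yolk sac markers 9 were measured, 7 lower, 1 higher and 1 neither, with Alb at 0 reads in the tumour and 260 in the normal kidney and Afp at 65 in the tumour and 48 in the normal kidney. The part of cell makeup in the P450 ratios was not tested.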

How the data were processed

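Total RNA of kidney tissue was depleted of ribosomal RNA and sequenced with a stranded kit, per the labels' protocols. Whole-number counts of reads in the exons of 32958 gene models were deposited, with header totals of 33169818 reads (tumour) and 40408775 reads (normal) per the file headers, of which 20836819 (62.8%) and 29258428 (72.4%) fell in exons. Deposited RPKM values equalled counts divided by length and header total to within 1.80e-06. Tools named per the submitters' processing notes are HOMER, STAR 2.5.0c and bcl2fastq, with no roles, and the build is mm10. How multiply mapped reads were treated is not stated in the sources used here.

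Counts were used as deposited. TMM factors (edgeR 4.0.16, R 4.3.3) were 1.21 for the tumour and 0.824 for the normal library. Ratios carry exact conditional (Clopper-Pearson) 95% intervals and no p-value, since each group is 1 library. PCR duplicates cannot be separated from independent molecules. A count of 0 was set to a floor of 3 reads for the ratio, and the lower interval limit then lies below that ratio. Other steps used Python 3.11.15, numpy 2.4.6, pandas 2.3.3, scipy 1.17.1 and matplotlib 3.10.9, and the calls were tested on simulated data. Sharing of 50-base windows was computed from GENCODE M21 transcripts, of which 47 of the 48 measured members had a match. Promoter sequences are from RefSeq.

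The members and gene lists were chosen with earlier results of these data known. Genes were named by a rule: all members of the small role groups, the 3 with most reads in each subfamily of families 1 to 4, every member called higher or neither, and of each list the 3 largest ratios in the direction of the median and the largest against it. Those with under 20 reads in families 2 to 4 are given by counts. Protein identity was not analysed here, and some genes of the lists are not reported here. Other scalings, minimums and fold limits were tried as alternatives.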

Additional observations from a re-analysis of the deposited data

How the results depend on the processing

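The direction of the family rests little on the scaling, but its size does. The median log2 ratio of the measured members was -3.15 with TMM. It was -2.59 when CPM went unscaled, -2.80 on header totals and -2.48 for log2(RPKM + 0.1). Those 3 settings moved the median of all genes up by 0.56, 0.35 and 0.32. Their shares of all genes called lower were 20.2%, 22.7% and 21.8%, against 28.0% with TMM, and called higher 42.1%, 37.9% and 36.4%, against 31.2%. Of the 34 lower and 6 higher calls, 32 and 6 were kept in each of the 3, with Cyp2s1 and Cyp3a13 lost. Cyp4f16 became higher (log2 1.13) with unscaled CPM, where the median of the receptors and factors was -0.0025. Cyp20a1 turned from -0.03 to 0.53, 0.32 and 0.32 and Cyp39a1 from -0.12 to 0.44, 0.24 and 0.22, with no call in any. At a 4-fold limit 31 members were lower and 3 higher, against 15.8% and 18.5% of all genes. The share of reads on P450 genes was 0.0224% (tumour) and 0.764% (normal) of header totals, and 0.0371% and 1.18% without mitochondrial genes and Rn45s. Median-of-ratios scaling changed none of the 48 calls. No paired analysis was possible because each group is 1 library. For the same reason no library could be left out, and depth limits the members with under 20 reads.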

Other observations

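Other oxidising enzymes that share substrates or electron donors with the P450 family gave the following values. The flavin monooxygenases, which also sit in the endoplasmic reticulum and oxidise foreign compounds at nitrogen and sulphur, had 4 measured members, all lower in the tumour, with a median log2 ratio of -5.72. Fmo1 had 66 reads in the tumour and 14316 in the normal kidney, 227-fold lower (counting interval 179 to 294). Fmo5 was 53.5-fold lower, Fmo4 52.1-fold lower and Fmo2 45.5-fold lower.

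A pair of P450 enzymes carry symbols outside the Cyp pattern. Tbxas1, thromboxane synthase, had 89 reads in the tumour and 259 in the normal kidney, 3.05-fold lower (2.39 to 3.93). Ptgis, prostacyclin synthase, had 409 reads in the tumour and 211 in the normal kidney, a 1.85-fold difference under the 2-fold limit. Of 10 genes of epoxide hydrolases and arachidonate metabolism 9 were measured. Of these, 4 were lower (44.4%), 2 were higher (22.2%) and 3 were neither, and the median was 0.02. Over all measured genes 28.0% were lower and 31.2% higher. Ptgs2, the inducible cyclooxygenase, had 154 reads in the tumour and 11 in the normal kidney, 13.4-fold higher (7.26 to 27.3), and the lipoxygenase gene Alox15 had 51 reads in the tumour and 3 in the normal kidney, 16.2-fold higher (5.25 to 81.2). Alox5 was 1.76-fold higher and passed neither call. Ephx2, the hydrolase that opens the epoxides made by Cyp2j and Cyp2c enzymes, had 723 reads in the tumour and 17829 in the normal kidney, 25.9-fold lower (24.0 to 27.9).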
